A study of Homo sapiens with 6 samples.

Results

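In RNA-seq libraries of the human prostate cancer line C4-2B-ENZR, 46 genes stood near the bottom of the scale in cells given a negative control siRNA (NC) and at clearly measurable levels in the libraries labelled KIF15 knockdown (siKIF15). They were chosen by a rule on the deposited values of this same comparison. The NC mean had to be at most 5, the siKIF15 mean at least 20, and every siKIF15 value had to lie above every NC value. Of the 17356 gene lines in the table, 65 met these limits, and 19 of them were left out by name. Those left out were interferon, chemokine, keratin and HLA genes with C3 and CD74, such as IFNB1, IFNL1, CXCL10, KRT16 and HLA-DRA. The other 46 are the subject of what follows, and 44 of them are described singly with their values.

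The siKIF15 group holds 3 libraries of C4-2B-ENZR cells transfected with an siRNA against KIF15, which encodes a motor protein that helps to build the spindle in mitosis. The NC group holds 3 libraries of the same cells transfected with a negative control siRNA. Both groups therefore share the line, its resistance to the androgen receptor blocker enzalutamide, and a transfection, so the comparison is between 2 transfections and not between transfected and untouched cells. The labels give no siRNA sequence, time after transfection or count of separate cultures, and C4-2B-ENZR is a single cell line. Values below are in the order of replicates 1, 2 and 3.

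The siRNA target did not pass as lower in siKIF15. KIF15 was listed at 294.8, 333.1 and 363 in siKIF15, against 366.4, 403.6 and 319 in NC. The groups overlapped, and the log2 change was -0.13 ± 0.14 (SE; limma adjusted p = 0.57). Each direction below is therefore that of the libraries labelled KIF15 knockdown. Prostate markers were abundant in both groups: KLK3, FOLH1, HOXB13 and the other genes of a list of 19 summed to between 447913.1 and 453774.5 in siKIF15, and to between 413419.2 and 422316.8 in NC, with 8 called higher and 2 lower by limma. With 1 library left out, 3 to 9 of them were called higher. Over all genes tested, limma called 9.66% higher and 8.33% lower.

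As background, a gene that a cell line does not use gives a handful of reads or none, and the same gene may be abundant in another tissue. Genes of this kind often have promoters poor in CpG dinucleotides, whereas widely used genes mostly start within CpG-rich stretches. Many of the 46 are known from other settings: oxidases, trefoil and defensin peptides from mucosal surfaces, and cytokine receptors from lymphocytes. Several of the excluded names are interferons, which act on the cells that release them and on their neighbours through the JAK-STAT pathway and the interferon-stimulated response element.

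The values that chose the genes were as follows. The siKIF15 means were at least 20.2 with a median of 39, and the NC means reached at most 4.98 with a median of 2.33. Summed over the 46 genes, the siKIF15 libraries held 2994.4, 3140 and 2822, against 109.5, 105.4 and 83.5 in the NC libraries. Even so, these were low transcripts: the median siKIF15 mean over all 16548 genes tested was 785, above that of every one of the 46. Only 7 of the 46 had a siKIF15 mean of 100 or more, 11 lay between 50 and 100, and 28 under 50. In these bulk libraries, more RNA per cell and more cells carrying a transcript cannot be told apart.

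**Figure D1:**
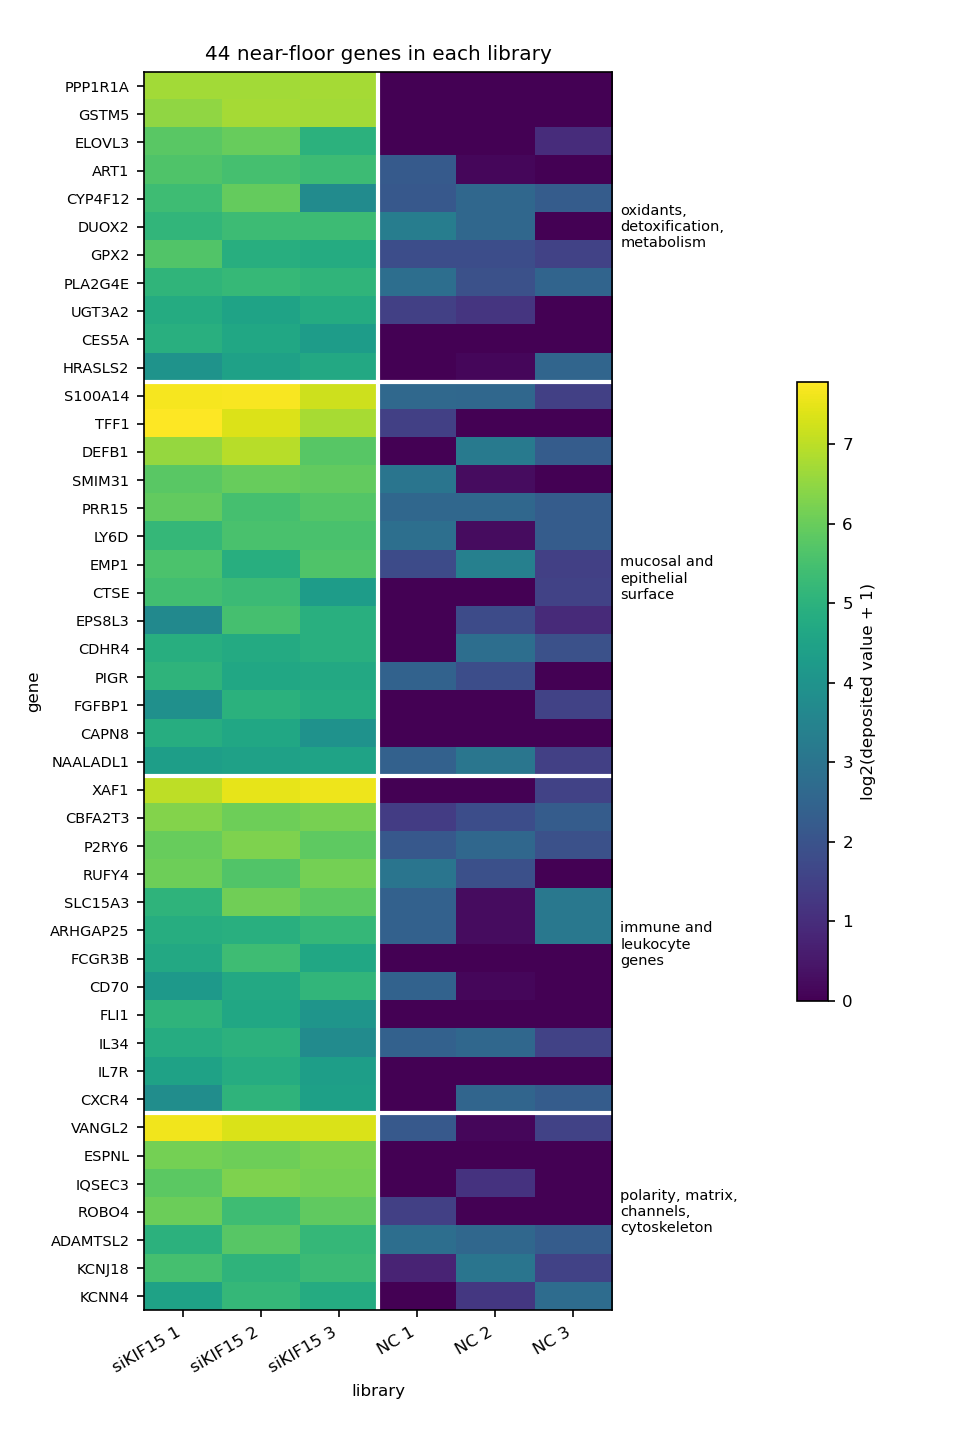
Heat map of 44 near-floor genes (rows, grouped by role and ordered by siKIF15 mean within a role) in the 3 siKIF15 and 3 NC libraries (columns), coloured by log2(deposited value + 1). S100A14, TFF1 and VANGL2 are bright in siKIF15, with means of 185.9, 164.4 and 172.2, and 8 rows are under 0.5 in all 3 NC libraries.

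**Figure D2:**
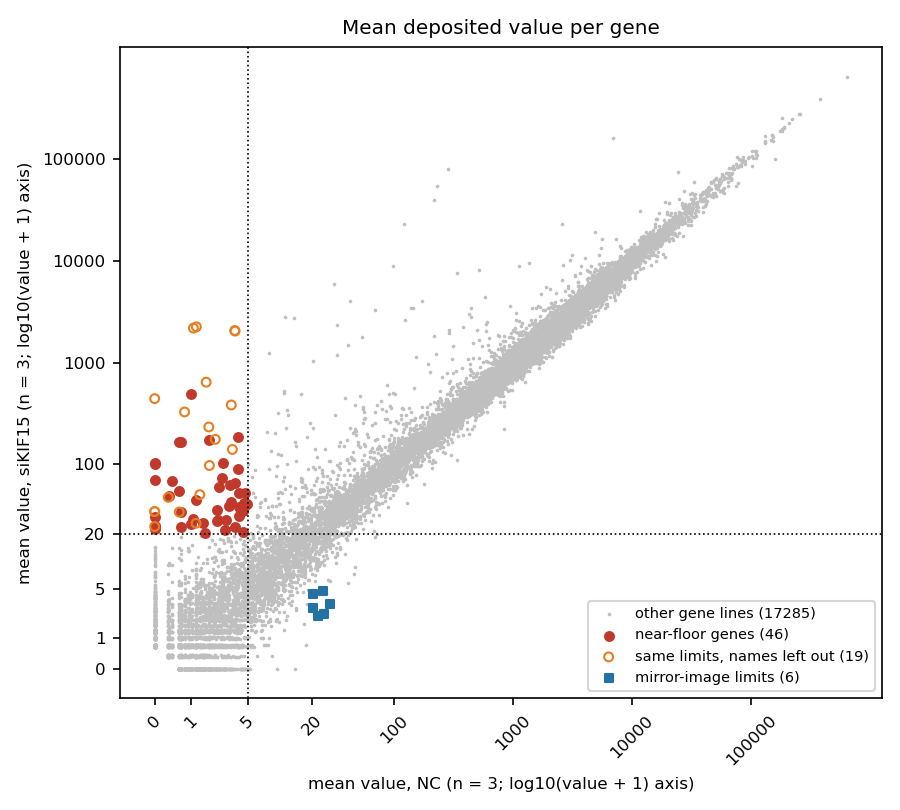
Mean siKIF15 value against mean NC value for every gene line, on log10(value + 1) axes, with dotted lines at the limits of 5 and 20. The 46 near-floor genes are filled circles, the 19 left out by name are open circles, and the 6 genes that met the mirror-image limits are squares.

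Over all genes tested, limma called 9.66% higher and 8.33% lower in siKIF15, and in 18.3% the siKIF15 values lay wholly above the NC values. The shares called are the background for every count of calls in this text. The 46 were chosen from this contrast, so nothing is read from their own calls. The same limits with the groups exchanged were met by 6 genes: GPR142, PIK3CG, NTNG2, CD300A, ERVH48-1 and FAM180A. PIK3CG, a phosphoinositide 3-kinase subunit of leukocytes, was listed at 0, 2.1 and 5.1 in siKIF15, against 23.8, 32.5 and 18.8 in NC. The table offered similar room in both directions, with 3115 lines at an NC mean of at most 5 and 3031 lines at a siKIF15 mean of at most 5. Of the 3115 lines low in NC, 2739 were at most 5 in siKIF15 too, and 129 lay between 5 and 20 there without overlap.

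Promoter sequence was available for 31 of the 46 genes, as windows of 250 bases before to 50 bases after the gene start (RefSeq, GRCh38.p14). The following 6 windows are printed because they carry the motif matches that the text turns on, with the matched letters in capitals. RUFY4 (chr2:218034684-218034983, plus strand) is the only 1 of the 31 with the letters GAAANNGAAA, searched here as the core of the interferon-stimulated response element. Cores with a spacing other than 2 bases were not counted, such as the gaaacgaaac in the XAF1 window. EMP1 (chr12:13196476-13196775, plus strand) holds both AP-1 and gamma-activated letters, and KCNN4 (chr19:43780924-43781223, minus strand) and XAF1 (chr17:6755796-6756095, plus strand) hold kappa B matches. IL7R (chr5:35856641-35856940, plus strand) and CXCR4 (chr2:136118100-136118399, minus strand) show a TATA box in a CpG-free and in a CpG-rich setting.
RUFY4: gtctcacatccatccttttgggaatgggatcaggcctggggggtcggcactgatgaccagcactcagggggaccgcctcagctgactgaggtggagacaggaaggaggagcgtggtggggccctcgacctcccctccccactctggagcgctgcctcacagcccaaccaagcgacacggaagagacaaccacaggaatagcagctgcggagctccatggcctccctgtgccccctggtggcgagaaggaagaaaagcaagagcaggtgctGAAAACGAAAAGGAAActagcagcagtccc
EMP1: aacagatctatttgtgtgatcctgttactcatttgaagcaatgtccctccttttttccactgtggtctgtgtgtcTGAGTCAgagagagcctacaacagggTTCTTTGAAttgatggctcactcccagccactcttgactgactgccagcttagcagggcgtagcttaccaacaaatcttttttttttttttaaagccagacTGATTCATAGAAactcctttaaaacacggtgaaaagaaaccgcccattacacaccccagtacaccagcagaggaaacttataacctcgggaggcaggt
KCNN4: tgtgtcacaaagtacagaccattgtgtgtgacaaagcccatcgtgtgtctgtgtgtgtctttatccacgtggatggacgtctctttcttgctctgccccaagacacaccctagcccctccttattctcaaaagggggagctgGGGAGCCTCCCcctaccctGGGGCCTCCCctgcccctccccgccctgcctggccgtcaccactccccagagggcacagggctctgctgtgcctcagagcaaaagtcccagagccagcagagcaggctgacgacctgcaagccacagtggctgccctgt
XAF1: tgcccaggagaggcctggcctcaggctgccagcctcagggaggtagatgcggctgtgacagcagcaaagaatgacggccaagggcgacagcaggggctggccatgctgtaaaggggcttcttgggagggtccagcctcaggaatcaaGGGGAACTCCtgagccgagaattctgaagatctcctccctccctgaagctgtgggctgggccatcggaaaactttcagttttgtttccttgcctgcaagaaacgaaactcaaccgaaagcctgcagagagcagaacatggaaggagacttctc
IL7R: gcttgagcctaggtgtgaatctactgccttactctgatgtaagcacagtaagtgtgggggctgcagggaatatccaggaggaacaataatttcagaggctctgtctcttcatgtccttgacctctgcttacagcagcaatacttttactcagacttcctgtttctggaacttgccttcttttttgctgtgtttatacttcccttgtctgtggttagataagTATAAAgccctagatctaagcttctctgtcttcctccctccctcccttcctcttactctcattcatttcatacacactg
CXCR4: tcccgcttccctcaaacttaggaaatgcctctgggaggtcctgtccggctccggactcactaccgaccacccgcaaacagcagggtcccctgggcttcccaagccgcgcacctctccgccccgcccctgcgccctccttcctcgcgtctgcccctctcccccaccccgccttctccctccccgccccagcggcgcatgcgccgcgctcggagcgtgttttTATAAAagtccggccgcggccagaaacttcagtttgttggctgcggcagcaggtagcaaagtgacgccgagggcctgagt

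With the start base counted as 0, RUFY4 held 2 overlapping response element cores (GAAANNGAAA, searched on both strands) at bases 20 to 35, inside the transcribed part. This core was in 3.23% of the 31 windows, against 3.08% of the 13583 windows of other genes, 7.12% of the 1236 other genes called higher and 4.4% of 2161 other genes with an NC mean of at most 5. EMP1 held the gamma-activated letters TTCNNNGAA at 2 places and the AP-1 letters TGANTCA at 2 places, and 1 of each overlapped near base -45. The gamma-activated letters were in 6.45% of the 31 windows and 6.48% of the others, and the AP-1 letters in 9.68% and 5.34%. Among the same 2161 low genes the shares were 6.99% for the gamma-activated and 8.1% for the AP-1 letters. In the last 150 bases of the window, the gamma-activated letters stood in 2 of the 31 (6.45%), against 2.64% of the others and 2.55% of the low genes. The AP-1 letters stood there in 3 (9.68%), against 2.56% and 3.79%, and the response element core in 1 (3.23%), against 1.48% and 2.04%. These shares rest on very few windows. All of these are counts of letters on both strands, and a match is not a binding site.

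Kappa B matches were found in 5 of the 31 windows, those of S100A14, XAF1, CBFA2T3, ADAMTSL2 and KCNN4, which is 16.1% against 12.7% of the others and 12.1% of the other low genes. KCNN4 had 3 matches within 30 bases, of which 2 overlapped. In the last 150 bases of the window the kappa B count was 2 (6.45%), against 6.09% of the others and 5.83% of the other low genes. The letters TATAAA, searched on the plus strand alone, stood in 4 of the 31 windows (12.9%), against 5.5% of all others and 11% of the 2161 other genes with an NC mean of at most 5. In IL7R, CXCR4 and ADAMTSL2 they began 29 or 30 bases before the start, and in SMIM31 136 bases before it.

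CpG dinucleotides were few in most of these windows. The median was 6 CpG per window in the 31, 8 in the 2161 other genes that were as low in NC, and 24 in all 13583 others. At least 10 CpG were found in 35.5% of the 31, in 46.2% of the other low genes and in 79% of all others. The median thus lay nearer to that of other low genes than to that of the table as a whole. The windows still differed widely among themselves, with 0 CpG in IL7R and 27 in CXCR4. GC content ran from 35.7% to 83% with a median of 58%, against 57.3% in the other low genes and 64% in all others.

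**Figure D3:**
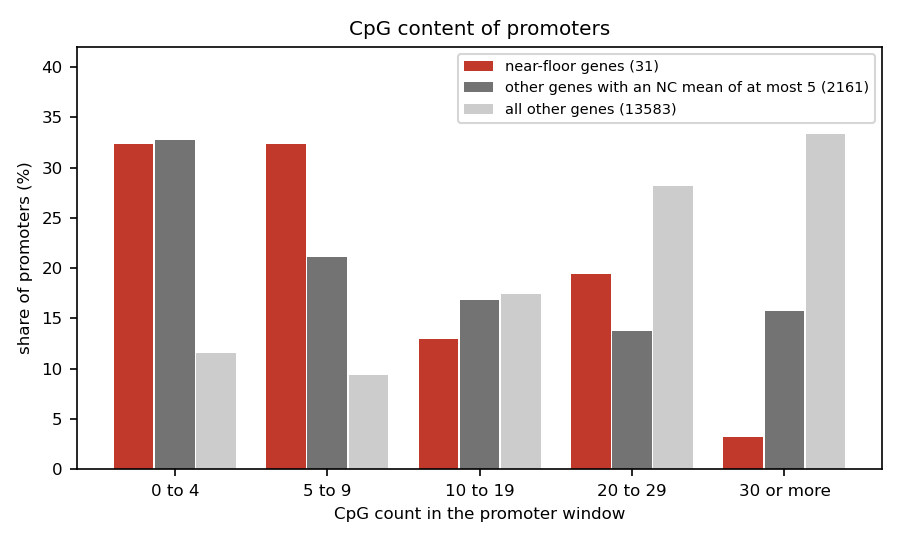
Share of promoter windows (y axis, percent) by the number of CpG in the window (x axis) for 31 near-floor genes, 2161 other genes with an NC mean of at most 5, and all 13583 other genes, which include the 2161. The near-floor genes have 32.3% of their windows at 0 to 4 CpG and 3.23% at 30 or more, where all other genes have 33.3%.

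Genes for oxidants, detoxification and metabolism made up 12 of the 46. DUOX2, a dual oxidase that makes hydrogen peroxide at mucosal surfaces, was listed at 33.9, 39.7 and 39.2 in siKIF15, against 8.9, 5.1 and 0 in NC. Its siKIF15 values were close together, and its NC values were among the highest of the group.

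Other oxidase genes ranged from the floor to high levels, and 5 of 14 were at most 5 in both groups by their means. CYBB, the catalytic subunit of the phagocyte NADPH oxidase, was listed at 1.6, 10.3 and 6.2 in siKIF15, against 2.5, 3.7 and 1.9 in NC (limma adjusted p = 0.51). CYBA, the p22phox partner of CYBB, was listed at 2.8, 0 and 0 in siKIF15, against 0, 0 and 1.9 in NC. NCF1, the p47phox organiser, was listed at 3.6, 0 and 3.1 in siKIF15, against 1.8, 0 and 0 in NC. NCF4, the p40phox subunit, was listed at 23.5, 17.8 and 15.5 in siKIF15, against 1.7, 3.6 and 0 in NC, with a log2 change of 3.09 ± 0.6 (SE; limma adjusted p = 0.0023). NCF4 narrowly missed the limits of the rule with a siKIF15 mean of 18.9.

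NOX5, NOXA1 and NOXO1, which encode another oxidase and the activator and organiser of NOX1, had means from 471.2 to 1050.2 in both groups. NOX1 and DUOX1 lay lower, and none of these 5 genes was called by limma. RAC1, a widely used GTPase that also serves this oxidase, averaged 8573.2 ± 290.2 in siKIF15 and 5697.6 ± 227.8 in NC (SD, n = 3 each), 1.5-fold higher (limma adjusted p = 1.5e-05). Among the dual oxidase partners, the maturation factor DUOXA2 was listed at 5.5, 1.1 and 2.1 in siKIF15, against 0.7, 3.7 and 2.9 in NC (limma adjusted p = 0.92). Its neighbour DUOXA1 stood at 13.2, 25 and 19.6 in siKIF15, against 2.4, 10.8 and 3.7 in NC (limma adjusted p = 0.029). That call was lost in 5 of the 6 fits that left out 1 library, with adjusted p from 0.051 to 0.11. Over the 14 measured relatives in this oxidase family, 12 were tested, and the 3 that passed, NCF4, RAC1 and DUOXA1, were all higher. DUOX2 and HRASLS2 also stand in a list of inflammatory enzymes, of which 32 others were tested. Of these, 12 were called higher and 2 lower, beside 9.66% and 8.33% over all genes. Their median log2 change was 0.55.

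GSTM5 and GPX2 are glutathione enzymes, the first a transferase of the mu class and the second a peroxidase best known from the gut. GSTM5 was listed at 89.2, 106.4 and 103.1 in siKIF15 and at 0 in each NC library. GPX2 was listed at 49.8, 28.3 and 26.9 in siKIF15, against 2.6, 2.6 and 1.9 in NC. Library 1 was the highest for GPX2 and the lowest for GSTM5. GSTM5, GSTM1, GSTM2 and GSTM4 are closely related genes of the mu class. How shared reads were assigned is not given in the sources used here, so the split between them is uncertain.

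On chromosome 1, GSTM5 lies between GSTM1 and GSTM3 in the RefSeq order. GSTM3 was the most abundant of the family, at 37755.1 ± 3128.4 in siKIF15 and 19078.8 ± 372.2 in NC (SD, n = 3 each), 1.98-fold higher (limma adjusted p = 1.3e-07). GSTM1 was 2.22-fold higher (limma adjusted p = 0.0042), a call that was lost without siKIF15 replicate 1 (adjusted p = 0.067). GSTM2 and GSTM4 were not called. EPS8L3, which flanks GSTM3 on its other side and encodes a relative of the actin regulator EPS8, was also among the 46, at 11.9, 43.6 and 28.9 in siKIF15 against 0, 2.4 and 0.9 in NC.

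PPP1R1A encodes inhibitor-1, a brake on protein phosphatase 1 that works once protein kinase A has phosphorylated it. It was listed at 102.9, 103.4 and 105.2 in siKIF15 and at 0 in each NC library. Its coefficient of variation of 1.19% over siKIF15 was the lowest among the 46. ELOVL3, an elongase of very long-chain fatty acids, was listed at 53.9, 61.4 and 31.1 in siKIF15, against 0, 0 and 1 in NC. ART1, a surface enzyme that attaches ADP-ribose to arginine, was listed at 49.4, 43.9 and 39.3 in siKIF15, against 3.6, 0.1 and 0 in NC. Library 3 was the lowest for both ELOVL3 and ART1, while it was the highest for PPP1R1A.

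CYP4F12, a cytochrome P450 that hydroxylates fatty acids, was the least even of the 46. It was listed at 40.4, 60.2 and 12.6 in siKIF15, against 3.4, 5 and 3.8 in NC, with a coefficient of variation of 63.3% over siKIF15. CYP4F12 has close copies in its gene cluster, so its value is uncertain. PLA2G4E, a cytosolic phospholipase A2 relative that forms N-acyl-phosphatidylethanolamines, was even at 33.1, 36.5 and 33 in siKIF15, against 6.1, 2.8 and 4.7 in NC. UGT3A2, a UDP-glycosyltransferase, was listed at 26.9, 22 and 26.8 in siKIF15, against 1.8, 1.3 and 0 in NC. CES5A, a carboxylesterase, was listed at 28.9, 24 and 18.6 in siKIF15 and at 0 in each NC library.

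HRASLS2, a phospholipid-modifying enzyme, was the lowest of the 46. It was listed at 15, 20.9 and 24.7 in siKIF15, against 0, 0.1 and 4.8 in NC. Next to it on chromosome 11 lies RARRES3, a member of the same small enzyme family, which was far more abundant. RARRES3 averaged 8834.7 ± 680.6 in siKIF15 and 97.7 ± 14.6 in NC (SD, n = 3 each), a 90.4-fold difference (log2 change 6.49 ± 0.11 SE, limma adjusted p = 1.4e-15).

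By roles assigned once the 46 were known, 15 of them were placed under mucosal and epithelial surfaces. The share of such genes over the whole table was not counted, so the size of the group is not read as a result. S100A14, a calcium-binding protein of epithelia, was listed at 205.3, 206.6 and 145.7 in siKIF15, against 5.2, 5 and 1.8 in NC. TFF1, a trefoil peptide secreted with mucus, was listed at 219.6, 165 and 108.7 in siKIF15, against 1.8, 0 and 0 in NC. TFF1 was 2 times as high in library 1 as in library 3. TFF2 and TFF3, the other trefoil genes, were measured and not called by limma.

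Most S100 relatives of S100A14 that were tested were higher in siKIF15 too. Of the 10, 6 passed, all as higher, beside 9.66% higher over all genes. Between 4 and 8 passed as higher when 1 library was left out. S100A16, the neighbour of S100A14 on chromosome 1, averaged 50.8 ± 6.8 in siKIF15 and 12.9 ± 2.3 in NC (SD, n = 3 each), 3.95-fold higher (limma adjusted p = 0.00075). S100P was 47.6-fold higher, at 3297.7 ± 361.8 in siKIF15 and 69.3 ± 9.2 in NC (limma adjusted p = 5.9e-14). S100A10, the annexin A2 partner, was 4.21-fold higher, at 2112.7 ± 219.5 in siKIF15 and 501.4 ± 32.8 in NC (limma adjusted p = 5.7e-10). S100A13 was not called (limma adjusted p = 0.096), except without siKIF15 replicate 3 (adjusted p = 0.014).

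**Figure D4:**
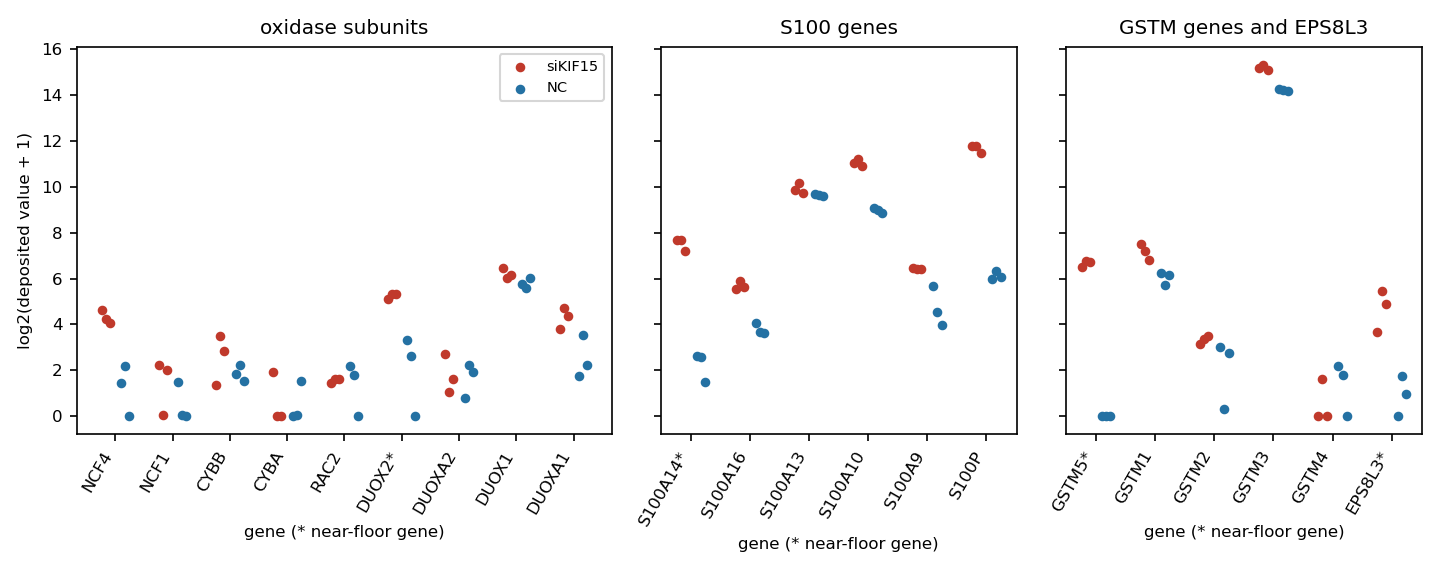
Each library's log2(deposited value + 1) for the oxidase genes, the S100 genes, and the GSTM genes with their neighbour EPS8L3, with siKIF15 libraries in red to the left of NC libraries in blue; an asterisk marks the near-floor genes. Of the oxidase genes plotted, NCF4, DUOX2 and DUOXA1 do not overlap between the groups, and S100P, S100A10 and S100A16 lie above their NC values beside S100A14.

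DEFB1, the antimicrobial beta-defensin 1, was listed at 93.2, 121.8 and 52.9 in siKIF15, against 0, 8.3 and 3.8 in NC. PIGR carries IgA across mucosal epithelium and was listed at 32.4, 24.1 and 24.8 in siKIF15, against 4.4, 2.6 and 0 in NC. Both had at least 1 NC library at 0 and a lowest siKIF15 value of more than 5 times the highest NC value. DEFB1 stands in a list of epithelial stress genes, of which 41 others were tested, with 15 called higher, 2 lower and a median log2 change of 0.47. With 1 library left out, 9 to 17 of these were called higher. The shares over all genes tested were 9.66% higher and 8.33% lower.

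LY6D, a lipid-anchored surface protein of stratified epithelium, was listed at 35.5, 45.9 and 45.4 in siKIF15, against 6.2, 0.2 and 3.8 in NC. EMP1, an epithelial membrane protein whose promoter letters are printed above, was listed at 46.7, 28.4 and 48.4 in siKIF15, against 2.4, 9.5 and 1.8 in NC. The NC value of 9.5 for EMP1 was the highest single NC value of any of the 46. Its relative EMP2 was abundant in both groups and 1.36-fold higher, at 2671.4 ± 11.7 in siKIF15 and 1958.1 ± 34.6 in NC (SD, n = 3 each; limma adjusted p = 0.00046).

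CTSE, the aspartic protease cathepsin E of stomach and immune cells, was listed at 42.4, 38.6 and 18.7 in siKIF15, against 0, 0 and 1.9 in NC. CAPN8, a calpain known from the stomach, was listed at 28, 24 and 14.5 in siKIF15 and at 0 in each NC library. Library 3 was the lowest for both, as it was for TFF1, and these 3 genes were set side by side after their values were seen. PGC, the gastric protease progastricsin and a relative of CTSE, was 5.12-fold higher, at 502 ± 3.1 in siKIF15 and 98 ± 21.6 in NC (limma adjusted p = 8e-08). PGA3, another relative, was listed at 0, 4.1 and 0 in siKIF15 and at 0 in each NC library (limma adjusted p = 0.62). Of 7 relatives of CTSE tested, 2 were called higher and 1 lower. Among the calpains, CAPN9 averaged 45.2 in siKIF15 and 42.5 in NC (limma adjusted p = 0.85). Of the 13 other calpain genes tested, 0 were called by limma, with 1 (lower) at an unadjusted p under 0.05. At most 1 in each direction was called when 1 library was left out, and 1 was called lower with equal library totals.

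SMIM31, which encodes a small membrane protein, was listed at 54.4, 62.6 and 59.8 in siKIF15, against 7.2, 0.2 and 0 in NC. PRR15, which encodes a proline-rich protein, was listed at 59.4, 44 and 50.6 in siKIF15, against 5.1, 5.1 and 3.8 in NC. FGFBP1, a carrier that releases fibroblast growth factors from the matrix, was listed at 13.9, 30.2 and 26.8 in siKIF15, against 0, 0 and 1.9 in NC. In FGFBP1 and EPS8L3, library 1 held less than 0.5 times the value of library 2.

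CDHR4, a cadherin-related protein, was listed at 28.7, 26.1 and 28.9 in siKIF15, against 0, 6 and 2.8 in NC. NAALADL1, a peptidase related to the prostate marker FOLH1, was listed at 19.6, 20.9 and 21.7 in siKIF15, against 4.3, 7.3 and 1.8 in NC. Both were even across the siKIF15 libraries, and NAALADL1 lay close to both limits of the rule.

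Immune receptors, ligands and genes known from leukocytes numbered 12. XAF1, an interferon-stimulated partner of the apoptosis inhibitor XIAP, was listed at 127.2, 178.4 and 189.7 in siKIF15, against 0, 0 and 1.9 in NC. It was the only 1 of the 46 in a list of 57 measured antiviral effectors. Of the other 56, 34 passed as higher and 1 as lower by limma, with a median log2 change of 1.01 against 0 over all other genes tested. The call as lower, of HELZ2, was lost in 5 of the 6 fits that left out 1 library. XIAP itself was not called by limma, but passed as lower without siKIF15 replicate 3 (log2 change -0.4, adjusted p = 0.00085) and with the replicate block (log2 change -0.28, adjusted p = 0.021). Of 5 genes tested in the family of XIAP, 1 was called higher and 1 lower. BIRC3, a related inhibitor of apoptosis, was 6.72-fold higher, at 1951.7 ± 351.3 in siKIF15 and 290.4 ± 11.6 in NC (limma adjusted p = 1.8e-10). BIRC6 was lower, at 1546.3 ± 403 in siKIF15 and 2326.6 ± 56.2 in NC (limma adjusted p = 0.0047). The BIRC6 call was lost without NC replicate 2 (adjusted p = 0.057) and without siKIF15 replicate 1 (adjusted p = 0.079).

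Among the receptors, P2RY6 responds to the nucleotide UDP and was listed at 61.6, 77.1 and 56.8 in siKIF15, against 3.4, 5 and 2.8 in NC. IL7R, the alpha chain of the interleukin-7 receptor, was listed at 21.4, 27.1 and 19.6 in siKIF15 and at 0 in each NC library. IL2RG, the shared chain that IL7R pairs with, stood at 212.2, 255.5 and 157.1 in siKIF15, against 6.8, 16.7 and 0 in NC, 26.7-fold higher by the means (limma adjusted p = 7.9e-05). IL2RG did not overlap between the groups and had an NC mean above the limit, whereas the rule itself required no overlap for IL7R. Of 5 other genes tested on this receptor axis, IL2RG was the 1 called. IL7, TSLP, JAK1 and JAK3 were not called, and JAK3 stood at 2.8, 1.1 and 0 in siKIF15, against 1.7, 0.1 and 3.8 in NC. At most 1 was called lower when 1 library was left out. CXCR4, the receptor for CXCL12, was listed at 13.1, 32.2 and 20.7 in siKIF15, against 0, 4.8 and 3.8 in NC. Of 48 other cytokine and chemokine receptor genes tested, 7 were called higher and 4 lower, beside 9.66% and 8.33% over all genes. Their median log2 change was 0.05. With 1 library left out, 5 to 7 were called higher and 1 to 5 lower.

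FCGR3B is an Fc receptor that is otherwise known from neutrophils. It was listed at 24.8, 40.5 and 23.8 in siKIF15 and at 0 in each NC library. Its near-identical copy FCGR3A was listed at 3.5, 4.2 and 5.1 in siKIF15 and at 0 in each NC library (limma adjusted p = 0.03). The FCGR3A call was lost in each of the 6 fits that left out 1 library, with adjusted p from 0.055 to 0.085. Because the copies share reads, the split between them is uncertain.

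CD70 is the ligand of CD27 and was listed at 17.6, 25.1 and 33.9 in siKIF15, against 4.5, 0.1 and 0 in NC. CD27 was measured at 527.3 ± 38.5 in siKIF15 and 382.6 ± 65 in NC (SD, n = 3 each; limma adjusted p = 0.027), a call that was lost in 4 of the 6 fits that left out 1 library and with equal library totals (adjusted p = 0.062). IL34, a ligand of the CSF1 receptor, was listed at 27, 31.2 and 12.5 in siKIF15, against 4.3, 5 and 1.9 in NC. IL34 had the narrowest gap of the 37 genes with an NC value of at least 1, its lowest siKIF15 value being 2.51 times its highest NC value. Its receptor CSF1R was listed at 22, 3.3 and 12.4 in siKIF15, against 17.1, 13.2 and 18 in NC (limma adjusted p = 0.47). Of 47 other cytokine genes tested, 7 were called higher and 1 lower, beside 9.66% and 8.33% over all genes. Between 4 and 8 were called higher when 1 library was left out.

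CBFA2T3, a transcriptional co-repressor of the ETO family, was listed at 80.8, 65.9 and 72.2 in siKIF15, against 1.6, 2.6 and 3.8 in NC. FLI1, an ETS transcription factor of blood and vessel cells, was listed at 32.6, 24 and 15.6 in siKIF15 and at 0 in each NC library. Of the 4 ETS relatives of FLI1 tested, ETS2 and ETV7 were called higher. ETV7 averaged 285 ± 37.7 in siKIF15 and 57.3 ± 14 in NC (SD, n = 3 each), 4.97-fold higher (limma adjusted p = 2e-06).

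RUFY4, linked to autophagy in dendritic cells, was listed at 66.3, 50.3 and 71.1 in siKIF15, against 7.1, 2.7 and 0 in NC. SLC15A3, a lysosomal transporter of histidine and peptides, was listed at 32.4, 67.6 and 55.7 in siKIF15, against 4.3, 0.2 and 7.7 in NC. ARHGAP25, a regulator of Rac in blood cells, was listed at 27.6, 29.3 and 35 in siKIF15, against 4.3, 0.2 and 7.7 in NC. The NC values of SLC15A3 and ARHGAP25 were the same to 1 decimal. That was common: the 46 genes had 34 distinct sets of NC values, and 42 of them shared their set with some other gene of the table, so values this low resolve only coarse steps.

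Of 31 leukocyte markers in the table, 29 were tested, and 4 passed as higher (CD68, FCGR3A, LAPTM5 and LCP2) and 1 as lower (LCP1), beside 9.66% higher and 8.33% lower over all genes. PTPRC, the pan-leukocyte marker CD45, was listed at 0, 0 and 0 in siKIF15, against 0.8, 0.1 and 3.8 in NC. The summed level of the list ran from 28508.6 to 29748 in siKIF15 and from 31458.7 to 32386 in NC, of which LCP1 made up most. LCP2, an adaptor of T cell signalling, stood at 101.5, 79.5 and 82.6 in siKIF15, against 5, 4.1 and 8.6 in NC (limma adjusted p = 2.2e-06). With 1 library left out, 2 to 5 of the 29 passed as higher, and the calls of LAPTM5 and LCP1 were each lost in 4 of these 6 fits.

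The last 7 genes serve cell polarity, guidance, matrix, channels and the cytoskeleton. VANGL2, a core protein of planar cell polarity, was listed at 193.8, 162 and 161 in siKIF15, against 3.5, 0.1 and 1.9 in NC. Its relative VANGL1 was abundant in both groups and 1.38-fold higher, at 4310.1 ± 376.2 in siKIF15 and 3124.6 ± 108.9 in NC (SD, n = 3 each; limma adjusted p = 0.00069). Of 11 planar polarity genes tested beside VANGL2, 3 were called, all higher.

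ROBO4, a roundabout receptor of endothelium, was listed at 64.8, 39.9 and 57.7 in siKIF15, against 1.8, 0 and 0 in NC. Its neighbour on chromosome 11, ROBO3, averaged 132.8 ± 33 in siKIF15 and 67.7 ± 13.8 in NC (SD, n = 3 each; limma adjusted p = 0.012). The ROBO3 call was lost in 4 of the 6 fits that left out 1 library, with adjusted p up to 0.065. ROBO1 was called lower, at 492.1 ± 49.9 in siKIF15 and 645.4 ± 39.6 in NC (limma adjusted p = 0.027). Among these 6 fits, the ROBO1 call was kept only without siKIF15 replicate 3. Of 6 roundabout and SLIT genes tested beside ROBO4, 1 was called higher and 1 lower. Of 9 endothelial markers tested beside ROBO4, 0 were called by limma, with also 0 at an unadjusted p under 0.05, and their median log2 change was 0.49. At most 1 was called when 1 library was left out. CDH5 was listed at 13.8, 6.3 and 0.1 in siKIF15, against 3.6, 0.1 and 0 in NC, and TEK at 0 in each siKIF15 library, against 1.8, 0 and 0 in NC. The 11 endothelial markers in the table, ROBO4 included, summed to 723.2, 657 and 626.4 in siKIF15, against 507.2, 526.2 and 532.7 in NC. Whether endothelial cells had a part in the level of ROBO4 was not tested.

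Of the channels, KCNN4 is a potassium channel opened by calcium and was listed at 21.2, 35.4 and 26.8 in siKIF15, against 0, 1.4 and 5.8 in NC. KCNJ18 is an inward rectifier known from skeletal muscle and was listed at 44.1, 32.5 and 38.2 in siKIF15, against 0.7, 7.1 and 1.9 in NC. It is nearly identical to KCNJ12, so its value is uncertain. KCNJ13, another inward rectifier, averaged 71 ± 5.8 in siKIF15 and 16 ± 5.4 in NC (SD, n = 3 each), 4.43-fold higher (limma adjusted p = 0.00023). It was the 1 gene called among the 8 other inward rectifier genes tested, and KCNJ12 passed only with a pseudocount of 5 (adjusted p = 0.048).

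ESPNL, a relative of the actin bundler espin, was listed at 70.7, 65.8 and 73.2 in siKIF15 and at 0 in each NC library. IQSEC3, an exchange factor for ARF GTPases that is known from inhibitory synapses, was listed at 55.1, 76.1 and 71.1 in siKIF15, against 0, 1.2 and 0 in NC. ADAMTSL2, a secreted protein that binds microfibrils, was listed at 31, 53 and 35.1 in siKIF15, against 6, 5.1 and 3.8 in NC. Its NC mean of 4.98 was the highest of the 46. Of the markers of fibroblasts, neurons, muscle and liver, 3 of 11, 1 of 12, 1 of 10 and 1 of 8 passed, all higher except the neuronal 1, beside 9.66% higher over all genes. Their median log2 changes were -0.01, -0.13, -0.37 and 1.05 in that order. The 3 fibroblast calls were FAP, FN1 and PDGFRA, and leaving out 1 library reduced them to as few as 0. The muscle and liver calls were each lost in at least 1 of these fits. The muscle call was also lost with equal library totals.

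Relatives of the 46 genes that were low in NC were mostly low in siKIF15 too, as were most low lines of the whole table. For 42 families, written after the 46 had been seen, 194 relatives were in the table and 178 were tested. Among them 31 (17.4%) passed as higher and 9 (5.06%) as lower, beside 9.66% and 8.33% over all genes tested. Their median log2 change was 0.09. With 1 library left out, 19 to 37 passed as higher and 4 to 20 as lower. Of the 52 relatives with an NC mean of at most 5, 45 were at most 5 in siKIF15 as well. Over the whole table this held for 2739 of the 3115 lines as low in NC, so it is no trait of these families.

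The 46 lay on 18 chromosomes in the RefSeq annotation, with 9 on chromosome 1 and 7 on chromosome 11, and all are annotated as protein-coding. For 13 of them (28.3%) a directly flanking measured gene was called higher, against 17.2% of 16975 other genes. Of 84 distinct flanking genes tested, 13 were called higher and 4 lower. Beside the S100, GSTM, ROBO and HRASLS2 neighbours above, RAB7B flanks CTSE and averaged 95.7 in siKIF15 and 9.6 in NC (log2 change 3.24, limma adjusted p = 1.9e-05). SLC6A12 flanks IQSEC3 and averaged 142.7 in siKIF15 and 20.9 in NC (log2 change 2.73, limma adjusted p = 1.5e-06). Where the counting did not use strand, which the sources used here do not state, overlapping neighbours cannot be told apart. This touches NAALADL1, at a distance of 0 bases from SAC3D1 and CDCA5, with siKIF15 means of 2681.7 and 3509.9. It also touches SLC15A3, at 0 bases from TMEM132A, with a siKIF15 mean of 11590.7. None of these abundant neighbours was called by limma.

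The libraries of siKIF15 did not order the genes in 1 way. Library 2 was the highest for 21 of the 46, library 1 for 14 and library 3 for 11. Among 3559 other genes with siKIF15 means in the same range, library 3 was the highest most often, for 41.8%, and library 2 for 29.8%. The median coefficient of variation over siKIF15 was 18.2% in the 46 and 15.1% in those other genes. Within bands of level the values were closer, at 28.4% and 26.9% for means of 20 to 30, and at 19.4% and 21.5% for means of 30 to 60. In 10 of the 46 the highest siKIF15 value was at least 2 times the lowest.

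**Figure D5:**
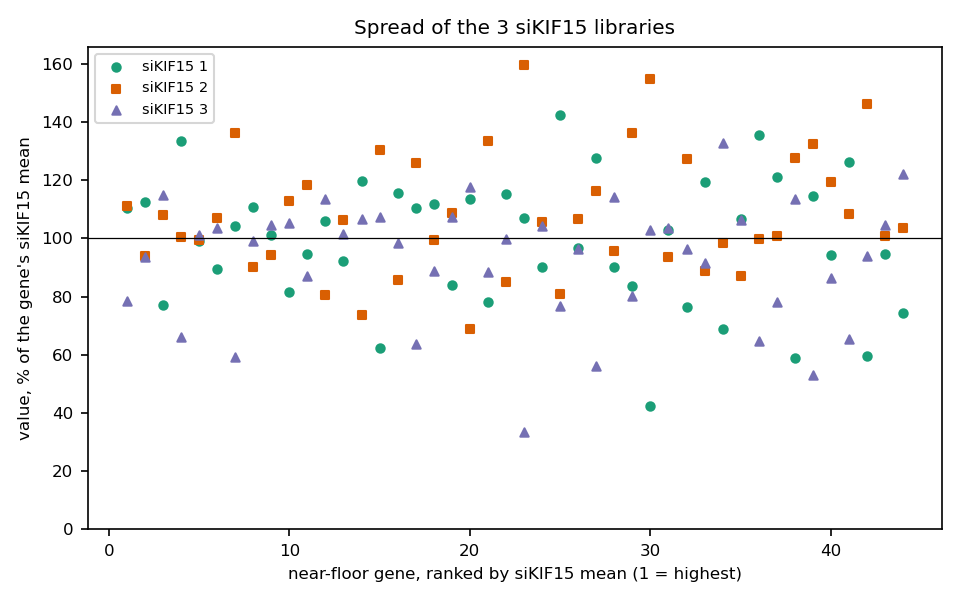
Each siKIF15 library's value as a percent of the gene's siKIF15 mean (y axis) for 44 near-floor genes ranked by that mean (x axis, 1 is the highest). PPP1R1A is the tightest, with a coefficient of variation of 1.19%, and CYP4F12 the widest, at 63.3%.

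In NC, 8 of the 46 were under 0.5 in all 3 libraries: PPP1R1A, GSTM5, ESPNL, FCGR3B, FLI1, CES5A, IL7R and CAPN8. In single NC libraries 19, 22 and 20 of the 46 were under 0.5, and none was in any siKIF15 library. The lowest single siKIF15 value was the 11.9 of EPS8L3. A listed 0 is not read as absence, because genes that dividing cells use were also near 0, such as AURKA at 0, 4.1 and 0 in siKIF15 and at 0 in each NC library. The ratio of the lowest siKIF15 to the highest NC value had a median of 6.36 over 37 genes, with 14 under 5 and 13 at 10 or more.

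The limits of the rule cut through a continuous range. Just inside the siKIF15 limit were HRASLS2, NAALADL1, CXCR4, CAPN8 and IL7R, with siKIF15 means of 20.2, 20.7, 22, 22.2 and 22.7. Just outside it were PLXNA4 and NCF4 at 18.9 each, RXRG at 18.8, MUC21 at 18.5 and ANPEP at 18.1. Just inside the NC limit were ADAMTSL2, PRR15, DUOX2, EMP1 and PLA2G4E, with NC means from 4.53 to 4.98. Just outside it was LGALS9, which encodes galectin-9, with means of 99.9 in siKIF15 and 5.08 in NC. ANGPT2, DPYD, LCN2 and LCP2 followed with NC means of 5.41, 5.49, 5.66 and 5.91.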

How the data were processed

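RNA-seq of 6 libraries was analysed, 3 labelled KIF15 knockdown and 3 labelled negative control, grouped by their titles. Each deposited file lists a signal for every gene symbol, in a unit that no header names. The low values look like read counts after a rescaling by the authors to a shared size, so depth is unknown and no counting interval is given. Sums per library ran from 49460840 to 53157388 and are not depths. The submitters' processing notes list Bowtie 0.12.2 with mouse genome builds only; the human build and annotation are not given in the sources used here. With values rounded to 1 decimal, a printed 0 may stand for a small positive value.

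The 46 genes, and all gene lists, families and roles, were chosen with earlier results of these data known. No test, fold or p is given for the 46. The text describes 44 of them singly, and 2 are not reported here. Genes outside the 46 were named as relatives, neighbours, list members with small adjusted p or genes nearest a limit, and relatives and neighbours were chosen after their values were seen. All other genes were tested with limma 3.58.1 (R 4.3.3), with an intensity trend, on log2(value + 1). The fit covered 16548 genes whose mean reached 1 in either group, with Benjamini-Hochberg adjustment and a threshold of 0.05. The plan named edgeR only for whole-number counts, which these are not. The script was tested on simulated data. Log2 changes are siKIF15 minus NC on that scale, which understates low genes. Folds are ratios of means and are given where the NC mean is at least 5. Separate cultures are not stated in the labels, so p-values reflect library-to-library spread that may be technical. The labels do not say whether same-numbered libraries were paired, and the main fit used no pairing. Same-numbered libraries had correlations of deviations of 0.0175, -0.021 and 0.0208. Those of differently numbered libraries ran from -0.046 to 0.0304. Such values over all genes do not settle whether the samples were paired. Names, chromosomes and neighbours came from RefSeq (GRCh38.p14), and 1 symbol, HRASLS2, is an older one. Neighbours are by gene order among measured genes. The 25 lines with date-like symbols are not named. Alternatives were other limits, scalings, pseudocounts, filters, a replicate block and leaving out each library.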

Additional observations from a re-analysis of the deposited data

How the results depend on the processing

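The count of near-floor genes followed the limits: 46 genes at 5 and 20, 22 at 2 and 20, 103 at 5 and 10, 18 at 5 and 50, and 39 at 10 and 40, of which 22 were shared with the 46. The mirror-image count was 6, and became 0, 30, 0 and 3 under the same limits. Scaling to equal library totals gave 44, without ADAMTSL2 and HRASLS2, median-ratio scaling gave the same 46, and with no name left out there were 65. Leaving out 1 library gave 45 to 48 genes and 5 to 8 mirror-image genes. Of the 46, 31 were kept in all 6 of these, and 15 dropped out at least once: CAPN8 and FLI1 without siKIF15 1, CXCR4 and IL34 without siKIF15 2, HRASLS2 without siKIF15 2 or 3, DEFB1 without NC 1, EMP1 without NC 1 or 3, ARHGAP25, PLA2G4E and SLC15A3 without NC 2, and ADAMTSL2, DUOX2, NAALADL1, PRR15 and S100A14 without NC 3.

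limma called 1599 genes higher and 1379 lower. Leaving out 1 library gave 767 to 2537 higher and 417 to 2540 lower; both lows came without siKIF15 replicate 1 and both highs without siKIF15 replicate 3. Equal library totals shifted the median log2 change by -0.06 and gave 1205 higher and 1753 lower, so that 40.7% of calls were higher, against 53.7% as deposited. With the replicate number as a block (replicate block), 1654 were higher and 1530 lower. In the labels, same-numbered libraries share only a number. Among the 43 genes checked singly, the block changed 1 call, that of XIAP. For those 43, all outside the 46, 555 comparisons with an alternative kept direction and call in 493, lost the call in 58 and gained it in 4, with 0 reversed. The cause of these changes was not tested. Depth is unknown, and values of a few units resolve only coarse steps.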
